A study of Caenorhabditis elegans with 8 samples.

Results

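Loss of AMP-activated protein kinase (AMPK) was examined in arrested dauer larvae of Caenorhabditis elegans by comparing daf-2; aak(0); hzl-1 dauers with daf-2; hzl-1 dauers, in 2 RNA-seq libraries each. Every gene with a mean of at least 1 FPKM (a density of sequenced fragments over the transcript's length, relative to library depth) over these 4 libraries was taken, which gave 14942 of the 46904 genes in the files. The larvae were whole hermaphrodites, collected after 96 h at 25 °C. All of them were mutant for hzl-1 and for daf-2, which encodes the insulin/IGF receptor, so no comparison here bears on the effect of either gene. The symbol aak(0) stands for the daf-2; aak-1; aak-2 background, which lacks both catalytic AMPK subunits, and the labels name no allele of any gene. The same genotypes at 192 h, labelled post-dauer and shifted to a permissive temperature per the design text, formed the other 4 libraries of the series. Below, daf-2; hzl-1 dauers are called the controls, and each pair of values is given in the order of the labels' replicate numbers. Whether replicates were separate cultures is not said in the labels, and a p-value measures only how far these libraries spread.

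AMPK is a trimer of a catalytic alpha, a beta and a regulatory gamma subunit that is activated by the kinase LKB1 (PAR-4 in C. elegans) when cellular energy falls. It phosphorylates metabolic enzymes and regulators, restraining anabolic pathways and promoting catabolic ones. In dauer larvae, which do not feed and live on stored fat, AMPK is known for slowing the use of fat stores and for keeping germline stem cells quiescent, so that aak(0) dauers have an overgrown germline and do not survive long.

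The balance of rises and falls depended on how the libraries were scaled. On log2(FPKM + 1), with limma across all genes and Benjamini-Hochberg adjustment, 3863 genes (25.9%) were higher and 602 (4.03%) were lower in the aak(0) dauers at an adjusted p under 0.05. Of the higher genes, 1081 passed the filter on low values only through the aak(0) libraries. Of the lower genes, 72 passed it only through the controls. Over all genes tested these numbers were 1573 and 234, so the balance is in part set by the filter. The median gene itself lay 0.39 higher on the log2 scale. Calls and adjusted p-values on FPKM below test a difference from 0 and do not allow for that shift. A change on FPKM is thus to be set beside it. After TMM scaling, which trims the most extreme genes before it equalises the libraries, the median was 0.036 and the calls were 2500 higher (16.7%) and 1532 lower (10.3%). The share of calls that were higher thus moved from 86.5% to 62%. Of the calls made on FPKM as deposited, 2482 of the higher and all 602 of the lower genes were called the same way after TMM scaling, and edgeR on recovered reads made the same call for 2020 and 556 of those. FPKM is a share of the RNA of a whole animal, so more cells of a type and more RNA per cell cannot be told apart.

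The first control library stood apart from the others. It was the shallowest of the 4 dauer libraries, with 13992157 recovered reads against 18721298 to 25339749, and 12.84% of its reads came from ribosomal RNA genes against 1.12 to 9.61%. The rank correlation of the control pair was 0.932, with 11.4% of genes more than 2-fold apart, against 0.977 and 2.24% in the aak(0) pair. The controls were far apart in cuticle genes of the dauer stage, described below. Without this library 2638 genes were higher and 581 lower, and without the other control library 4766 were higher and 550 lower. Leaving out an aak(0) dauer library lowered the counts further, to 1279 higher and 142 lower without the first and 1336 and 157 without the second. Of all genes tested, 57.1% had both aak(0) values above both control values and 16.3% had both below.

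**Figure D1:**
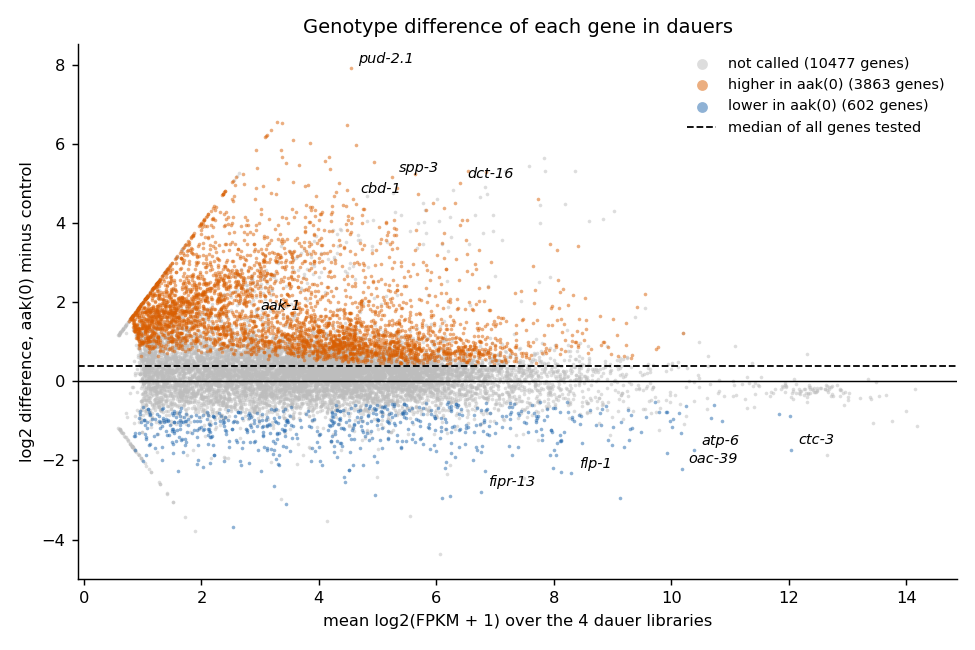
Each point is 1 of the 14942 genes tested, with its mean log2(FPKM + 1) over the 4 dauer libraries on the horizontal axis and the log2 difference, aak(0) minus control, on the vertical axis. The solid line marks 0 and the dashed line the median of 0.39; the 3863 genes called higher lie mostly at low and middle levels, and the mitochondrial genes atp-6 and ctc-3 are among the most abundant genes called lower.

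The genes of the kinase complex were read first. The labels do not say which part of aak-1 and aak-2 is lost, so RNA from the rest of either gene checks nothing about the mutations. The aak-1 gene (WBGene00019801, III:8756995-8761101 in WBcel235) had 3.1 and 3.19 FPKM in the controls and 14.7 and 9.99 in the aak(0) dauers. Its RNA was thus higher, not lower, in animals labelled as lacking it, by 1.66 ± 0.24 on the log2 scale (SE, adjusted p = 0.00397), and its exons overlap the gene sma-2 on the opposite strand by 100 nt. The other catalytic gene, aak-2 (WBGene00020142, X:16796087-16803357), had 35.6 and 43.6 FPKM against 37.9 and 49.1, and the values overlapped (adjusted p = 0.654). Whether counting used the strand is not stated, and without strand the reads of such a pair cannot be told apart.

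Of 14 genes for AMPK subunits, their upstream kinase and its partners, 5 were higher and 1 was lower. With the first control library left out 2 were higher and none lower, and without the second 4 were higher and none lower. The list's median difference of 0.43 was close to that of all genes, and after TMM scaling 1 was higher and 2 were lower. The regulatory gamma subunit gene aakg-5 fell, from 98.1 and 104 FPKM to 60.7 and 72.1 (log2 difference -0.60 ± 0.15, adjusted p = 0.0263). The beta subunit gene aakb-1 had 123 and 133 FPKM in the controls and 74 and 91.1 in the aak(0) dauers, which missed the threshold on FPKM (adjusted p = 0.0524) and passed it after TMM scaling (adjusted p = 0.013). The other beta subunit gene, aakb-2, was higher (13.7 and 20.1 FPKM against 29.9 and 28.3, adjusted p = 0.046), as was the gamma subunit gene aakg-2 (7.28 and 8.72 against 12.2 and 15.2, adjusted p = 0.0497). The LKB1 gene par-4 was at 12.2 and 11.2 against 23 and 22.8 FPKM (adjusted p = 0.0323) and strd-1, which encodes its partner STRAD, at 13.9 and 16.6 against 33 and 28.7 (adjusted p = 0.00835). None of these 4 calls held after TMM scaling (adjusted p from 0.0836 to 0.33). The gamma subunit gene aakg-1 was not called (24.7 and 22.9 against 31.5 and 37.4 FPKM, adjusted p = 0.0629), nor was daf-2 (33.1 and 29.7 against 36.1 and 37.2 FPKM, adjusted p = 0.687). The mutated hzl-1 gene was too low to be tested, at 0.50 and 0.59 FPKM in the controls and 0.89 and 1.03 in the aak(0) dauers.

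Genes that were almost silent in control dauers led the rises. The cathepsin B-like protease gene cpr-2 had 1.15 and 1.6 FPKM in the controls and 214 and 207 in the aak(0) dauers, a log2 difference of 6.48 ± 0.45 (adjusted p = 0.000281). The galectin gene lec-10 went from 0.43 and 1.23 to 109.8 and 120.3 FPKM (6.02 ± 0.26, adjusted p = 0.000156), and scl-2, for a secreted SCP-like protein, from 0.49 and 5.52 to 176 and 218 (5.98 ± 0.61, adjusted p = 0.00115). Both aak(0) libraries exceeded both controls at each of these genes, which the rule that picked them required. The saposin-like antimicrobial gene spp-3 was at 5.39 and 5.21 FPKM against 218 and 233, 42.6-fold by the means, and dct-16, a gene named for control by DAF-16, at 6.06 and 30.7 against 496 and 467. The infection-response gene irg-5 was at 0.15 and 1.46 against 57.7 and 56.3 FPKM and sdz-24, named as an embryonic transcript that depends on SKN-1, at 0 and 1.57 against 73.4 and 71.6. Over these 4 genes, adjusted p lay between 0.000135 and 0.00203.

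**Figure D2:**
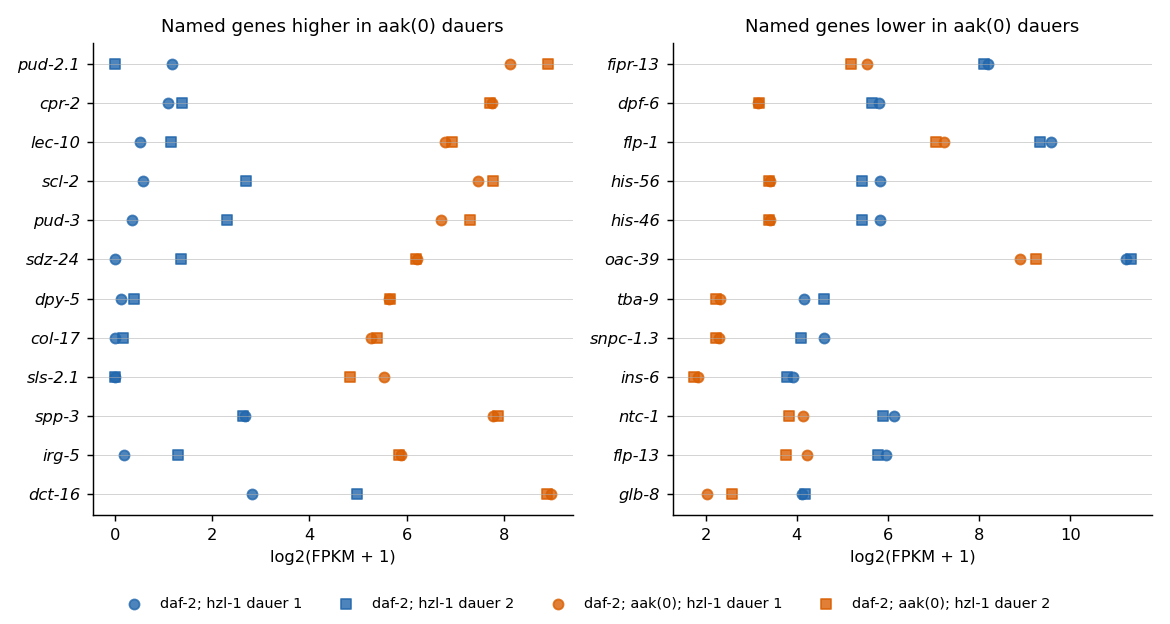
The 12 largest named rises (left) and the 12 largest named falls (right) are shown with log2(FPKM + 1) of the 4 dauer libraries on the horizontal axis, controls in blue and aak(0) in orange, circles for replicate 1 and squares for replicate 2. The groups do not overlap at any of these genes, which the selection required, with controls left of aak(0) in the rises and right of it in the falls; the rise of sls-2.1 was not seen in its reads.

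At some of the largest changes the FPKM rested on few reads of the gene's own. The FPKM of pud-2.1, a gene of proteins up-regulated in daf-2 mutants, was 1.27 and 0 in the controls and 278 and 474 in the aak(0) dauers, but the recovered reads were 0 and 1 against 11 and 36, and the gene has near-identical copies that share reads with it. In edgeR, which used those reads, it was still higher (log2 difference 4.40, adjusted p = 0.0187). The spliced-leader RNA gene sls-2.1 had 0 and 0 FPKM against 45.3 and 27.4, while its reads were 1 and 3 against 4 and 3, and edgeR did not call it (log2 difference -0.09, adjusted p = 0.977). The histone genes his-56 and his-46 had the same FPKM in every library, 55.3 and 42.4 in the controls and 9.64 and 9.39 in the aak(0) dauers, and at most 7 reads each in any dauer library (edgeR adjusted p = 0.294 and 0.113).

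Most tested pud and dod genes were higher. Of 11 tested pud and dod genes, 10 were higher and none lower, with 7 higher after TMM scaling and 9 without the first control library. The gene pud-3, which has far more reads, had 0.29 and 3.92 FPKM in the controls and 103 and 157 in the aak(0) dauers (2 and 37 reads against 1184 and 1925, log2 difference 5.67 ± 0.62, adjusted p = 0.00142). Its neighbour pud-1.2 was listed at 5.87 and 30.8 FPKM against 502 and 679.9, with 0 and 0 reads against 13 and 18. Over the whole list the reads were 1785 and 2780 in the controls and 8895 and 10541 in the aak(0) dauers. The pud genes on chromosome V lie in a run of 7 adjacent tested genes (2318525 to 2330930) that were all called higher. Such a run was not singular: 105 runs of at least 4 adjacent higher genes were found, the longest of 10. The near-identical copies within this run share reads, so their calls are not separate observations.

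Many germline genes of oocytes and sperm were called higher. Of 36 genes of oocytes and the eggshell, 33 were higher and none lower, and 31 were still higher after TMM scaling. The median member had 4.29 and 4.03 FPKM in the controls and 45 and 45.9 in the aak(0) dauers, against 205 and 203 in control post-dauers and 189.7 and 231 in aak(0) post-dauers. The list's median log2 difference was 2.68, with 2 members that passed the filter on low values only through the aak(0) libraries. All 27 tested major sperm protein genes (of 31) were higher too, with medians of 3.83 and 8.31 FPKM against 60.8 and 71.9, as were 35 of 44 tested genes of a further sperm list (of 58). In that second sperm list 17 of the 44 passed the filter only through the aak(0) libraries, and in the first 3 of 27 did, so those counts are in part set by the filter.

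The oocyte genes behaved alike in both replicates. The eggshell gene cbd-1, which encodes a chitin-binding protein, had 3.97 and 3.72 FPKM in the controls and 115 and 122 in the aak(0) dauers (4.62 ± 0.16, adjusted p = 0.000135). The Nanos gene nos-2, a maternal regulator of germ cell fate, was at 1.17 and 1.13 against 35.7 and 36.3 FPKM (4.11 ± 0.15, adjusted p = 0.000135), and the Pumilio-family gene puf-5 at 3.53 and 5.15 against 97.5 and 93.7. The zinc-finger gene oma-1, needed for oocyte maturation, was at 4.67 and 3.1 against 27.5 and 22.7 FPKM (6.46-fold by the means, adjusted p = 0.00061). Among sperm genes, msp-51 was at 2.85 and 3.78 FPKM against 81.6 and 76.5, msp-79 at 4.89 and 6.54 against 65.3 and 73.2, nspd-10 at 6.55 and 7.99 against 91 and 87.6 and ssp-34 at 0.48 and 1.77 against 29.3 and 25.9, each with adjusted p from 0.000156 to 0.000421. The msp genes are near-identical copies that share reads: all 31 together had 391 and 811 reads in the controls and 7486 and 8936 in the aak(0) dauers.

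Genes of germline stem cells and of entry into meiosis were mostly not called. Of 48 such genes 11 were higher (22.9%, against 25.9% of all genes) and 3 lower (6.25%, against 4.03%). After TMM scaling 4 were higher and 3 lower, and the lower calls on FPKM did not hold without the first control library. The translational repressor gene gld-1, which acts in meiotic germ cells, was at 17.5 and 13.2 FPKM in the controls and 79.6 and 79.4 in the aak(0) dauers (2.31 ± 0.16, adjusted p = 0.000309). The Notch receptor gene glp-1, which keeps germline stem cells dividing, was at 12.3 and 7.03 against 15 and 15.9 FPKM and was not called (adjusted p = 0.245). The crossover gene him-5 fell from 100.0 and 69.9 to 31.3 and 25.4 FPKM (-1.53 ± 0.47, adjusted p = 0.0485), a call that was lost without the first control library (adjusted p = 0.209).

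P granules are the RNA-protein condensates of germ cells. Of 22 tested genes for their parts, 13 were higher and none lower, and 8 were higher after TMM scaling. Of the 22, 3 passed the filter only through the aak(0) libraries, so the count is in part set by the filter. The gene meg-1 was at 0.030 and 0.30 FPKM in the controls and 10.5 and 9.61 in the aak(0) dauers, and pgl-1, a core component, at 26.5 and 18.9 against 50.1 and 47 (adjusted p = 0.0071, and 0.102 after TMM scaling). The Vasa-type helicase gene glh-1 was not called (70.0 and 43.1 against 52.1 and 51.7 FPKM, adjusted p = 0.824).

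Genes of DNA replication and the cell cycle were higher in 45 of 82 cases and lower in none, with 24 higher and 1 lower after TMM scaling. The ribonucleotide reductase genes rnr-2 and rnr-1, for the small and large subunits of the enzyme that makes deoxynucleotides, were among them. For rnr-2 the values were 17.6 and 19.1 FPKM in the controls and 150.4 and 159.7 in the aak(0) dauers (3.01 ± 0.13, adjusted p = 0.000156). For rnr-1 they were 13.1 and 12.8 against 45.6 and 47.5 FPKM (adjusted p = 0.000394), and for pcn-1, the replication clamp PCNA, 85.1 and 65 against 208 and 199 (adjusted p = 0.00267). The phosphatase gene cdc-25.3 went from 0 and 0.29 to 19 and 17.4 FPKM. The cyclin-dependent kinase inhibitor gene cki-1, which holds cells out of the cycle, was at 11 and 24.9 against 29.2 and 36.3 FPKM and was not called (adjusted p = 0.106).

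Markers of the adult soma were measured in the same libraries, beside these germline genes. The 6 vitellogenin (yolk) genes, the most abundant adult intestinal genes, summed to 1.07 and 1.27 FPKM in the controls and 7.36 and 0.580 in the aak(0) dauers, against 4977 and 3810 in the aak(0) post-dauers. None of the 6 reached the filter. The adult collagen gene col-19 was at 0.44 and 0.10 FPKM in the controls, 6.86 and 0.11 in the aak(0) dauers and 996 and 1170 in the aak(0) post-dauers, so a trace was present in the first aak(0) library and not in the second. The 5 genes of uterine lumen proteins, made by the hermaphrodite uterus, summed to 1.06 and 0.370 FPKM in the controls, 67.0 and 38.6 in the aak(0) dauers and 8454 and 7095 in the aak(0) post-dauers. Of these, ule-3 was at 0.080 and 0.19 against 30.4 and 14.3 FPKM (adjusted p = 0.000376), ule-4 at 0.63 and 0 against 22.8 and 19.5 (adjusted p = 0.000283) and ule-5 at 0 in both controls against 13.1 and 4.23 (adjusted p = 0.00342). All 3 passed the filter only through the aak(0) libraries. For comparison, the 31 msp genes summed to 1590 and 1765 FPKM in the aak(0) dauers against 10464 and 10642 in the aak(0) post-dauers. The part of adult somatic tissue in the germline values was not tested. Of 4 tested genes of the male soma (of 13 matched), none was higher and 1 was lower, and their sum with the untested members was 13.8 and 20.1 FPKM in the controls against 8.61 and 9.94.

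**Figure D3:**
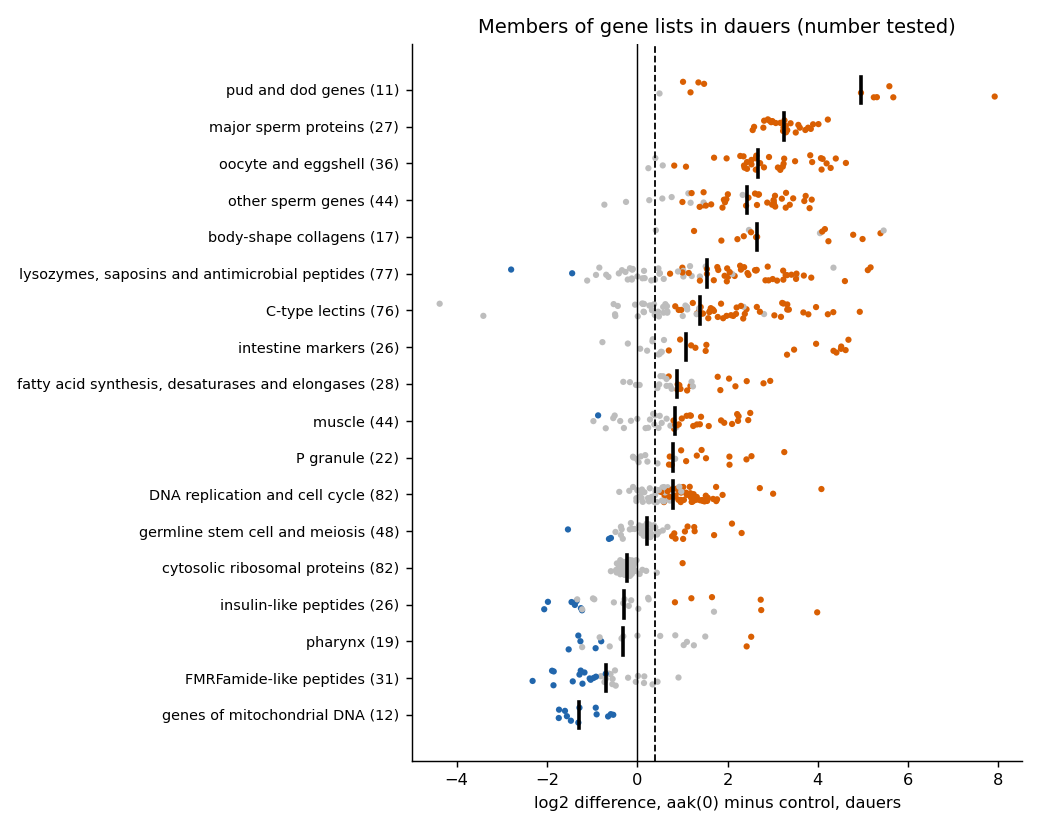
Each point is a tested member of a gene list, with the log2 difference of aak(0) minus control dauers on the horizontal axis; orange members were called higher, blue lower and grey neither, and the black bar is the list's median. The dashed line marks the median of all genes, 0.39. Among the lists drawn, the medians of the pud, major sperm protein, oocyte and body-shape collagen lists lie farthest to the right. The other sperm list follows, and the medians of the mitochondrial DNA and FMRFamide-like peptide lists lie farthest to the left.

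The cuticle of the dauer is built from its own collagens, and at several of these the controls differed widely. The collagen gene col-2 had 11.1 and 1118 FPKM in the controls and 2332 and 2272 in the aak(0) dauers, and col-40 had 12.2 and 919 against 1896 and 1869. The same gap between the controls was seen at col-37 (10.7 and 778 against 1570.4 and 1599 FPKM) and at cut-1, for a cuticlin of the dauer alae (0.55 and 272 against 604 and 636). None of the 4 was called (adjusted p from 0.11 to 0.115). Against the second control alone the log2 differences were 1.03 at col-37, 1.03 at col-40 and 1.18 at cut-1. Against the first control alone they were 7.57 at col-2, 7.08 at col-37, 7.16 at col-40 and 8.65 at cut-1. A lone control has no spread of its own, so at these genes only the sizes of the differences are given. Counts and calls given elsewhere with a control left out assume that the lone library varies like the others. The dauer cuticle genes cut-5 (0 and 6.81 FPKM against 19.6 and 23.2) and dex-1 (0.62 and 10.4 against 28.8 and 33) were called higher on FPKM (adjusted p = 0.0376 and 0.040) and not by edgeR (0.153 and 0.116).

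The col family as a whole, which includes the dauer collagens above, was split between higher and uncalled genes. Of its 126 tested genes (of 157), 56 were higher, 1 was lower and 69 were not called, with 51 higher and 2 lower after TMM scaling. Of the 126, 40 passed the filter only through the aak(0) libraries. When the first control was dropped 75 were higher and 1 lower, and without the second 98 were higher and 2 lower. The gene col-93 was at 0.78 and 0.76 FPKM in the controls and 39.1 and 32.3 in the aak(0) dauers (4.37 ± 0.20, adjusted p = 0.000156), and col-17 at 0 and 0.12 against 37.6 and 41.1 (adjusted p = 0.000277). The gene col-73 was listed at 0 in both controls and at 21.5 and 19.9 FPKM in the aak(0) dauers (adjusted p = 0.00019). The only member called lower was col-62, at 4.77 and 3.33 FPKM against 0.92 and 0.88 (adjusted p = 0.0153).

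Of 17 tested collagens that shape the body, 13 were higher, with 8 of the 17 tested only through the aak(0) libraries. The gene dpy-5 was at 0.090 and 0.31 FPKM in the controls and 48.6 and 49.5 in the aak(0) dauers (5.39 ± 0.32, adjusted p = 0.00019), and dpy-13 at 0.080 and 0.27 against 35.3 and 37.2 (adjusted p = 0.000231). The gene sqt-1 was listed at 0 FPKM in both controls and at 27.7 and 25.4 in the aak(0) dauers (adjusted p = 0.00020). The gap between the controls also touched other members. The gene dpy-7 (0.13 and 4.76 against 14.5 and 15.1 FPKM) was called at an adjusted p of 0.0401, a call lost without the first control. The gene sqt-3 (0.36 and 34.7 against 109 and 119.9) missed the threshold at 0.0581. Of 28 molting genes 9 were higher (32.1%, against 25.9% of all genes) and none lower, 7 and 2 after TMM scaling. Without the first control library 4 of them were higher, and without the second 15 were. The nuclear receptor gene nhr-23, which drives molts, was at 5.74 and 4.61 against 12 and 10.9 FPKM (adjusted p = 0.0131, and 0.069 after TMM scaling), and noah-2, for an apical matrix protein, at 0.78 and 8.34 against 28.8 and 37.8 (adjusted p = 0.0215). The molting gene mlt-10 was too low to be tested (0.10 and 0.10 FPKM against 1.14 and 1.13).

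Of 26 tested intestine markers, 15 were higher, none was lower and 11 were not called, with 14 higher and 1 lower after TMM scaling. The aspartic protease gene asp-1 was at 22.8 and 76.4 FPKM in the controls and 946 and 1165 in the aak(0) dauers (4.62 ± 0.51, adjusted p = 0.00156), and asp-3 at 7.72 and 31.1 against 381 and 383 (adjusted p = 0.00191). The cysteine protease gene cpr-5 was at 0 and 1.07 against 19.2 and 23.8 FPKM. The brush-border actin gene act-5 was at 73.7 and 98.4 against 237 and 254, 2.85-fold by the means (adjusted p = 0.00181). The gene of the intestinal GATA factor, elt-2, overlapped between the groups (15.6 and 18.9 against 16.2 and 20.1 FPKM, adjusted p = 0.837).

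In genes of immune defence, calls were mostly of higher levels, and many tested members were low in the controls. Of 76 tested C-type lectin genes (of 240), 42 were higher and none lower, 39 and 2 after TMM scaling, and 30 of the 76 passed the filter only through the aak(0) libraries. The lectin gene clec-87 was at 17.9 and 23.2 FPKM in the controls and 342 and 322 in the aak(0) dauers (16.2-fold by the means, adjusted p = 0.000156) and clec-63 at 24.6 and 43 against 327 and 344 (9.92-fold, adjusted p = 0.000394). Of 77 tested lysozymes, saposins and antimicrobial peptides (of 108), 41 were higher and 2 lower, 35 and 4 after TMM scaling, and 13 of the 77 passed the filter only through the aak(0) libraries. The infection-response gene irg-4 was at 0.29 and 0.060 FPKM against 28.9 and 25.9 (adjusted p = 0.000177), the caenopore gene spp-1 at 14.1 and 19.5 against 101 and 116 (adjusted p = 0.00030) and the lysozyme gene lys-8 at 17.6 and 19.8 against 75.7 and 72.9 (adjusted p = 0.00032). The largest fall among the genes named here was also in this class, at fipr-13, a gene related to fungus-induced peptides. It went from 293 and 274 to 45.3 and 35.4 FPKM (-2.79 ± 0.18, adjusted p = 0.00023). Among the tested lectins log2 differences reached -4.38, without a lower call on FPKM.

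Body muscle genes were higher more often than pharynx genes by count, a difference that was not tested. Of 44 muscle genes 22 were higher and 1 lower, 13 and 5 after TMM scaling, and none was lower without either control library. The body-wall myosin gene myo-3 was at 9.35 and 14.8 FPKM in the controls and 68.9 and 74 in the aak(0) dauers (2.50 ± 0.25, adjusted p = 0.00113), and mup-2, for troponin T, at 24.7 and 41.2 against 149 and 161 (adjusted p = 0.0016). The major myosin gene unc-54 was at 207 and 209.5 against 349 and 387 FPKM, called on FPKM (adjusted p = 0.0278) and not after TMM scaling (0.30) or without the first control (0.0939). The copine gene cpna-1 was the member called lower (172 and 224 against 90.9 and 126 FPKM, adjusted p = 0.0497, and 0.0773 without the first control).

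Of 19 tested pharynx genes (of 32), 2 were higher and 5 lower, 0 and 6 after TMM scaling. With the first control library left out 1 was higher and 4 were lower, and 4 of the 19 passed the filter only through the aak(0) libraries. The pharyngeal myosin gene myo-5 fell from 37.9 and 24 to 10.4 and 9.38 FPKM (-1.52 ± 0.29, adjusted p = 0.0103). The homeobox gene ceh-34, which specifies pharyngeal neurons, fell from 10.4 and 10.4 to 3.68 and 3.86 FPKM (adjusted p = 0.00721), and the troponin I gene tni-4 from 91.5 and 81.1 to 49.5 and 40.9 (adjusted p = 0.00812). The pharyngeal myosin gene myo-2 was not called, with 71.9 and 24.3 FPKM in the controls and 16.9 and 17.9 in the aak(0) dauers (adjusted p = 0.188).

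Among neuropeptide genes of the FMRFamide family, those called were lower. Of 31 genes for FMRFamide-like peptides, 14 were lower, none was higher and 17 were not called, with differences up to 0.91 on the log2 scale. After TMM scaling 22 were lower, and the shares of all genes called lower were 4.03% on FPKM and 10.3% after TMM scaling. Without the second control library 13 were lower and 2 higher. The median member had 176 and 259 FPKM in the controls and 125 and 131 in the aak(0) dauers. The gene flp-1, for peptides that act on locomotion, fell from 766 and 641 to 149 and 131 FPKM, 5.02-fold lower by the means (-2.32 ± 0.26, adjusted p = 0.00167). The genes flp-13 and flp-11, whose peptides promote sleep, fell from 61.3 and 54.2 to 17.6 and 12.5 and from 271 and 259 to 131 and 123 FPKM (adjusted p = 0.00329 and 0.0066), and flp-26 from 135 and 134 to 54.6 and 64.4 (adjusted p = 0.00372). The groups did not overlap at any of these 4 genes, which the rule that picked flp-1 and flp-13 among the largest falls required.

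Other neuropeptide-like genes were divided. Of 73 tested, 12 were higher and 11 lower, 6 and 27 after TMM scaling, and 9 and 7 without the first control library. The gene nlp-49 fell from 505 and 431 to 158 and 123 FPKM (adjusted p = 0.00612) and nlp-6 from 144 and 135 to 56.4 and 56.2 (adjusted p = 0.00188), while nlp-77 rose from 161 and 186 to 464 and 491 (adjusted p = 0.000738). The gene ntc-1, for nematocin, the worm's relative of oxytocin and vasopressin, fell from 69.1 and 58.3 to 16.6 and 13.2 FPKM, 4.27-fold lower by the means (-2.03 ± 0.28, adjusted p = 0.00347).

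Other neuron markers moved in both directions. Of 42 neuron markers 6 were higher (14.3%, against 25.9% of all genes) and 2 lower (4.76%, against 4.03%), 5 and 10 after TMM scaling. Genes of the touch receptor neurons were among the higher ones: the tubulin gene mec-7 was at 8.8 and 18.5 FPKM in the controls and 58.5 and 67 in the aak(0) dauers (adjusted p = 0.0038), mec-12 at 24.9 and 32.2 against 65 and 81.6 (adjusted p = 0.00669) and the touch channel gene mec-4 at 1.7 and 2.2 against 4.94 and 5.66 (adjusted p = 0.0123). Exons of mec-4 overlap aak-2 by 78 nt on the opposite strand. The tyrosine decarboxylase gene tdc-1, expressed also in the gonadal sheath, was at 5.07 and 3.58 against 21.7 and 17.5 FPKM (adjusted p = 0.00115), and the dopamine synthesis gene cat-2 fell from 4.8 and 5.85 to 2.05 and 2.77 (adjusted p = 0.0278). The alpha-tubulin gene tba-9 fell from 16.8 and 23.1 to 3.98 and 3.65 FPKM (adjusted p = 0.00202). Of 33 tested cilium genes none was higher and 2 were lower, and of 112 tested chemoreceptor genes (of 1313) 12 were higher and 21 lower. When the first control was dropped 7 chemoreceptor genes were higher and 26 lower, without the second 21 and 30, and 14 of the 112 passed the filter only through the aak(0) libraries. The cilium genes called lower numbered 1 without either control.

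Insulin-like peptides, ligands of the DAF-2 receptor, changed in both directions. Of 26 tested (of 40), 6 were higher and 7 lower, 3 and 9 after TMM scaling, and 2 and 4 without the first control library. The gene ins-6, whose peptide promotes exit from dauer, fell from 14 and 12.7 to 2.53 and 2.36 FPKM (-2.06 ± 0.40, adjusted p = 0.0109, and 0.0508 without the first control). The genes ins-26 and ins-1 fell from 16.9 and 13.7 to 5.59 and 4.3 and from 30.0 and 20.0 to 8.96 and 9.13 FPKM (adjusted p = 0.00991 and 0.0127). In the other direction, ins-20 rose from 2.88 and 6.95 to 82.9 and 91.3 FPKM (3.99 ± 0.44, adjusted p = 0.00154) and ins-37 from 1.77 and 3.05 to 21 and 22 (adjusted p = 0.00113). The agonist gene daf-28 was low in all 4 libraries (0.81 and 0.57 against 2.15 and 1.87 FPKM, adjusted p = 0.049, and 0.104 after TMM scaling). The antagonist gene ins-18 was not called on FPKM (84.2 and 101 against 65.1 and 84.2, adjusted p = 0.329) and was lower after TMM scaling (0.0319).

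Downstream of the receptor, the FOXO factor gene daf-16 fell from 212 and 192 to 108 and 118 FPKM, 1.79-fold lower by the means (-0.83 ± 0.17, adjusted p = 0.0124). The kinase gene akt-1 was not called (139 and 179.7 against 137 and 149 FPKM, adjusted p = 0.748). Of 17 genes from the insulin receptor to DAF-16, 3 were higher and 1 lower, and after TMM scaling none was higher and 3 were lower. Without the first control library 1 of the 17 was higher. Of 27 tested longevity targets of DAF-16, 8 were higher (29.6%, against 25.9% of all genes) and none lower on FPKM. After TMM scaling 4 were higher and 3 lower, and more were higher on FPKM without the second control library.

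The other pathways that decide on dauer entry changed at few genes. Of 23 tested (of 30), 1 was higher and 2 were lower, 1 and 6 after TMM scaling, and 3 and 3 without the second control library. The TGF-beta ligand gene daf-7, which opposes dauer entry, fell from 42.1 and 28.2 to 12.2 and 10.1 FPKM (-1.55 ± 0.26, adjusted p = 0.0071), and the guanylyl cyclase gene daf-11 from 1.62 and 2.01 to 0.60 and 0.68 (adjusted p = 0.0247). The steroid dehydrogenase gene dhs-16 rose from 1.28 and 2.4 to 6.18 and 6.14 FPKM (adjusted p = 0.0105). The gene of the nuclear receptor DAF-12, daf-12, was at 83.2 and 71 against 45.6 and 55.2 FPKM, not called on FPKM (adjusted p = 0.136) and lower after TMM scaling (0.025). The hormone synthesis genes daf-9 (3.02 and 1.87 against 1.66 and 1.56 FPKM, adjusted p = 0.268) and daf-36 (2.36 and 3.26 against 4.49 and 5.65, adjusted p = 0.41) were not called.

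Every protein-coding gene of mitochondrial DNA was lower. All 12 were called, on FPKM, after TMM scaling and by edgeR, and 8 were called without the first control library and 8 without the second. The median member had 1108 and 1081 FPKM in the controls and 569 and 587 in the aak(0) dauers. The ATP synthase gene atp-6 fell from 2405 and 2479 to 695 and 769 FPKM, 3.34-fold lower by the means (-1.74 ± 0.17, adjusted p = 0.000929), the cytochrome oxidase gene ctc-3 from 7716 and 7687 to 2236 and 2401 (adjusted p = 0.00137) and the NADH dehydrogenase gene nduo-2 from 479 and 428 to 138 and 169 (adjusted p = 0.00196). The libraries were selected for poly(A), so a mitochondrial level is a level of polyadenylated RNA. Of the 49 nuclear genes of the respiratory chain, 8 were higher (16.3%, against 25.9% of all genes) and none lower, 1 and 1 after TMM scaling. With the first control library left out 3 of the 49 were higher, and without the second 15 were. Of 71 genes for mitochondrial ribosomal proteins 1 was higher and 4 were lower, and 14 were lower after TMM scaling. Without the second control library 2 of the 71 were lower.

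Genes of fatty acid synthesis, a process AMPK restrains, were higher or not called. Of 28 genes for fatty acid synthesis, desaturases and elongases, 14 were higher and none lower, 9 and 0 after TMM scaling. The stearoyl-CoA desaturase gene fat-6 was at 19.1 and 59 FPKM in the controls and 251 and 230.1 in the aak(0) dauers (2.80 ± 0.45, adjusted p = 0.00586). The elongase genes elo-6 and elo-5, which make branched-chain fatty acids, were at 23.2 and 30.4 against 119 and 128 and 12.7 and 13.5 against 54.5 and 59.1 FPKM (adjusted p = 0.000691 and 0.00105). The acetyl-CoA carboxylase gene pod-2, whose protein is a classical AMPK target, was at 19.7 and 16.2 against 31.7 and 36.1 FPKM (adjusted p = 0.0162, and 0.137 after TMM scaling). The fatty acid synthase gene fasn-1 overlapped (23.2 and 25 against 19.4 and 28.7 FPKM, adjusted p = 0.963), the desaturase gene fat-5 was not called (9.9 and 23.8 against 37.4 and 37.9, adjusted p = 0.131) and fat-7 was at most 0.0900 FPKM in any dauer library.

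Of 23 tested lipase and lipolysis genes 10 were higher and 1 lower, 4 and 2 after TMM scaling. When the first control was dropped 6 were higher, and without the second 16 were. The triglyceride lipase gene atgl-1, whose protein AMPK is known to restrain in dauers, was at 19.5 and 23.8 FPKM in the controls and 39.7 and 42 in the aak(0) dauers (adjusted p = 0.0116, and 0.139 after TMM scaling). The lysosomal lipase genes lipl-1 (0 and 0.83 against 9.35 and 10.7 FPKM, adjusted p = 0.00158) and lipl-4 (5.31 and 6.79 against 11.6 and 15.1, adjusted p = 0.0256, and 0.0668 after TMM scaling) were higher. The lipase-related gene lips-15 fell from 637 and 583 to 192 and 223 FPKM (-1.56 ± 0.26, adjusted p = 0.00718). Of 58 tested genes of beta-oxidation (of 64) 21 were higher and 2 lower, 12 and 2 after TMM scaling. Without the first control library 11 were higher and none lower, and 7 of the 58 passed the filter only through the aak(0) libraries. The acyl-CoA dehydrogenase gene acdh-1 rose from 5.1 and 14.6 to 171 and 105 FPKM (3.79 ± 0.63, adjusted p = 0.00666), and the acyl-CoA synthetase gene acs-2 was not called (183 and 82.1 against 61.9 and 75.8, adjusted p = 0.164).

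In carbohydrate metabolism, most calls depended on the scaling. Of 21 genes of the citric acid cycle 12 were higher on FPKM and 3 after TMM scaling. The isocitrate dehydrogenase gene idh-1 was at 23.4 and 25.3 FPKM in the controls and 109 and 103 in the aak(0) dauers (2.07 ± 0.13, adjusted p = 0.000223). Of 22 glycolysis genes 8 were higher on FPKM, 2 after TMM scaling and 5 without the first control library, with none lower in any of the 3. Of 12 genes for the glyoxylate cycle, gluconeogenesis and glycogen, 5 were higher and none lower, 3 and 1 after TMM scaling. The glycogen phosphorylase gene pygl-1 rose from 67.2 and 81.2 to 199.9 and 229.9 FPKM (adjusted p = 0.00122). The gluconeogenic gene pck-1 was not called on FPKM (142 and 164 against 111 and 118, adjusted p = 0.176) and was lower after TMM scaling (0.00973), and icl-1 of the glyoxylate cycle overlapped (320.1 and 218 against 259.7 and 377 FPKM, adjusted p = 0.506).

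Genes of stress protection changed at single members. Of 35 genes for chaperones and the unfolded protein response 9 were higher (25.7%, against 25.9% of all genes) and 1 lower, 4 and 5 after TMM scaling. With the first control library left out 8 were higher and 4 lower, and without the second 14 were higher and none lower. The endoplasmic reticulum chaperone gene hsp-4 (BiP) rose from 43.9 and 60.0 to 186 and 179 FPKM (1.81 ± 0.17, adjusted p = 0.000829), and hsp-90 fell from 4199 and 5541 to 2531 and 2977 (adjusted p = 0.0327). The mitochondrial chaperone gene hsp-6 overlapped between the groups (177 and 212 against 185 and 218 FPKM, adjusted p = 0.852). The small heat shock gene hsp-12.3 (131 and 181 against 82.5 and 92.5 FPKM, adjusted p = 0.0578) and the superoxide dismutase gene sod-3 (215 and 355 against 157 and 168, adjusted p = 0.128) missed the threshold on FPKM and were lower after TMM scaling (0.0131 and 0.0172). Not called under either were hsp-12.6 (1228 and 2198 against 867 and 936 FPKM, adjusted p = 0.263), the metallothionein gene mtl-1 (2771 and 4119.5 against 2207 and 2122, adjusted p = 0.267) and the glyoxalase gene djr-1.2 (58.7 and 131 against 94 and 98.8, adjusted p = 0.889). Of 14 small heat shock genes 4 were higher (28.6%) and 1 lower, 1 and 2 after TMM scaling. Of 29 antioxidant genes 6 were higher (20.7%) and 2 lower, 4 and 5 after TMM scaling. Both shares are to be set beside the 25.9% of all genes. When the first control was dropped 3 antioxidant genes were higher and 1 lower, and without the second 11 and 1.

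Small RNA and chromatin genes were read because aak(0) germ cells are known for altered chromatin marks. Of 57 small RNA genes 11 were higher (19.3%, against 25.9% of all genes) and none lower, 6 and 3 after TMM scaling. The nuclear Argonaute gene hrde-1, which carries silencing across generations, rose from 14.5 and 9.72 to 49.1 and 51 FPKM (1.99 ± 0.21, adjusted p = 0.00116), and the germline Argonaute gene wago-1 from 13.2 and 11.5 to 75.1 and 76.6 (adjusted p = 0.000176). The double-stranded RNA binding gene rde-4 was not called (41.4 and 39.9 against 43.9 and 48.8 FPKM, adjusted p = 0.386). The gene snpc-1.3, which drives transcription of piRNAs in the male germline, fell from 23.3 and 16.1 to 3.91 and 3.68 FPKM (-2.09 ± 0.29, adjusted p = 0.00362). Of 40 tested genes for histone methylation and heterochromatin, 7 were higher (17.5%, below the share of all genes) and none lower, 2 and 0 after TMM scaling. Neither the H3K4 methyltransferase gene set-2 (8.97 and 6.91 against 11.1 and 10.9 FPKM, adjusted p = 0.422) nor the HP1 gene hpl-2 (67.7 and 65.2 against 75.8 and 78.5, adjusted p = 0.315) was called.

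Core histone genes changed in both directions. Of 58 tested (of 73), 27 were higher and 5 lower, and TMM scaling gave 17 and 10 and edgeR on reads 14 and 3. Without the first control library 12 were higher and 6 lower, and without the second 29 and 4. Of the 58, 9 passed the filter only through the aak(0) libraries, and many of these copies share reads. The gene his-68 rose from 1.94 and 3.18 to 40.6 and 44.7 FPKM (adjusted p = 0.000351) and the H2A.Z gene htz-1 from 108 and 90.4 to 283 and 254 (adjusted p = 0.00168), while his-60 fell from 73.6 and 60.9 to 23.4 and 22.2 (adjusted p = 0.00524). Of 8 tested linker histone genes, 4 were higher and 1 lower. The gene hil-2 rose from 26.4 and 24.9 to 82.8 and 78.3 FPKM (adjusted p = 0.00051) and hil-7 from 1.3 and 2.41 to 6.73 and 10.4 (adjusted p = 0.0225), and hil-3 fell from 274 and 371 to 137 and 188 (-0.99 ± 0.21, adjusted p = 0.0159). The most abundant member, hil-1, was not called (616 and 914 against 573 and 754 FPKM, adjusted p = 0.628), nor was his-24 (81.5 and 140.3 against 89.8 and 112, adjusted p = 0.816).

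A few single genes completed the falls. The dipeptidyl peptidase gene dpf-6 fell from 54.4 and 48.9 to 7.88 and 8.02 FPKM, 6.5-fold lower by the means (-2.55 ± 0.30, adjusted p = 0.00193). The acyltransferase gene oac-39, among the most abundant genes of the controls, fell from 2391 and 2566 to 472 and 611 FPKM (-2.20 ± 0.55, adjusted p = 0.026, and 0.0998 without the first control). The globin gene glb-8 fell from 16.2 and 17.1 to 3.06 and 5.0 FPKM (adjusted p = 0.00818).

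Lists of general cell functions had few calls or calls that depended on the scaling. Of 82 genes for cytosolic ribosomal proteins, 1 was higher and none lower, with medians of 5196 and 6275 FPKM in the controls and 4605 and 5374 in the aak(0) dauers. Their median log2 difference was -0.61 relative to the median of all genes, and -0.62 after TMM scaling. At 34 of the 82 both aak(0) values lay below both control values, and at 2 above, against 16.3% and 57.1% of all genes. Proteasome genes were higher in 13 of 33 cases on FPKM and in none after TMM scaling. Of 11 genes of TOR signalling 1 was higher (9.09%) and none lower. Of 30 autophagy genes 5 were higher (16.7%) and 1 lower, and of 9 trehalose genes 2 were higher (22.2%) and 1 lower. Over all genes tested 25.9% were higher and 4.03% lower. With the first control library left out 2 autophagy genes were higher and none lower, and without the second 8 and 1. By chromosome, the share of tested genes called higher ran from 22.6% on the X to 29.1% on chromosome IV, with none on mitochondrial DNA.

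**Figure D4:**
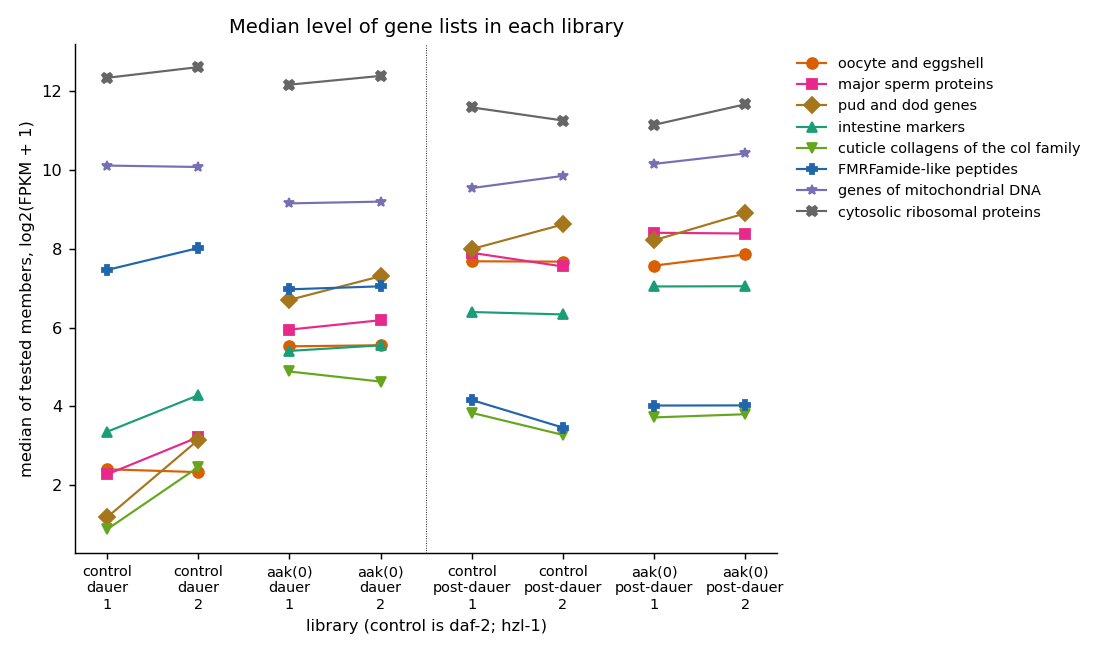
The median FPKM of the tested members of 8 gene lists, as log2(FPKM + 1), is plotted for each of the 8 libraries, with lines joining the replicates of a group and a dotted line between dauers and post-dauers. In the aak(0) dauers the oocyte list lies between the control dauers (4.29 and 4.03 FPKM) and the post-dauers (190 to 231 FPKM), while the mitochondrial list is lowest there.

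The same genotypes at the post-dauer stage allowed a test of whether the differences changed with the stage. In post-dauers, aak(0) was higher at 400 of the 14942 genes (2.68%) and lower at 50 (0.335%). Of the 3863 genes higher in aak(0) dauers 145 were also higher in aak(0) post-dauers, which is 3.75% of the first set and 36.25% of the second. Of the 602 lower genes 9 were also lower and 31 were higher in post-dauers. The interaction, the dauer difference minus the post-dauer difference, was above 0 at 1183 genes (7.92%) and below 0 at 472 (3.16%). All groups share 1 estimate of the spread, and these counts moved with each library left out. In post-dauers, the number higher was lowest without the first control post-dauer library (12) and highest without the first control dauer library (883). The number lower was 0 by limma without the first control post-dauer library, with 221 at an unadjusted p under 0.05, and 1006 without the first aak(0) post-dauer library. The interaction counts were lowest without the first aak(0) dauer library (265 above 0 and 63 below) and highest without the first aak(0) post-dauer library (3054 and 621). Among genes higher in aak(0) dauers it was called above 0 for 1147 (29.7%), and among the lower ones below 0 for 260 (43.2%). These genes were selected on the dauer difference, which is a term of the interaction, so the selection favours calls on the same side and nothing is read from these shares.

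The genes higher in aak(0) dauers also had a higher median level in control post-dauers than all genes tested. Their median was 4.04 FPKM in control dauers, 18.15 in aak(0) dauers and 21.5 in control post-dauers, against 10.9, 15.9 and 11.3 over all genes tested. Single genes departed from it: ins-20 was at 1.0 and 0.42 FPKM, mec-4 at 0.90 and 0.70 and cut-5 at 0.29 and 0.14 in control post-dauers. The lower genes had medians of 30.6, 12.8 and 3.66 FPKM. The control dauers enter both of these sets of values, so the order of control dauers and aak(0) dauers follows from the selection. The post-dauer libraries do not enter that difference, but they enter the estimate of the spread behind the calls, so their level is not fully free of the selection.

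**Figure D5:**
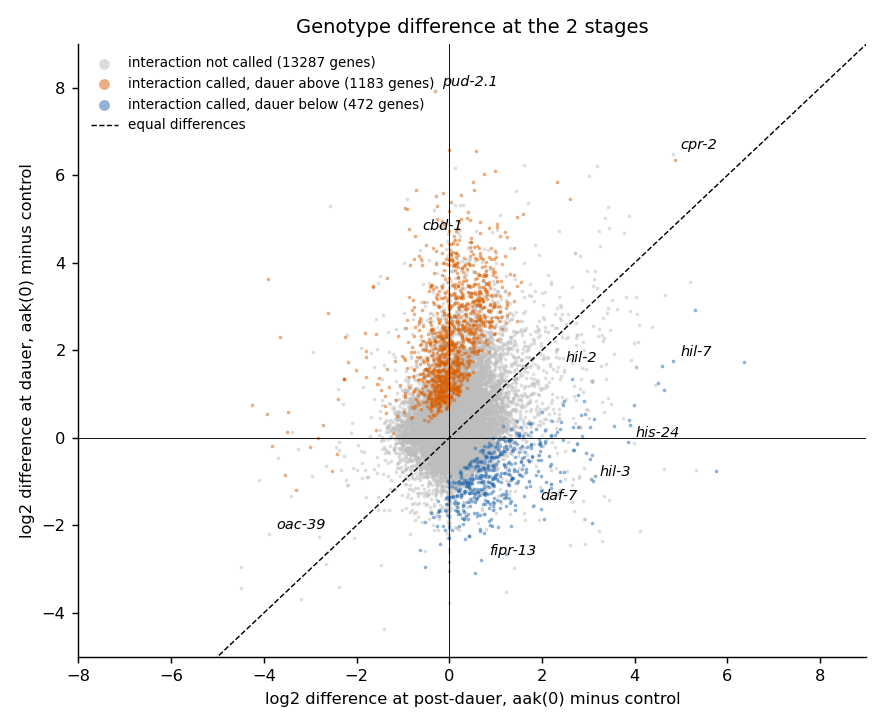
Each point is 1 of the 14942 genes, with the log2 difference, aak(0) minus control, in post-dauers on the horizontal axis and in dauers on the vertical axis. Orange marks the 1183 genes and blue the 472 genes whose interaction was called. Most orange points lie near 0 on the horizontal axis, while the linker histone genes hil-3, his-24 and hil-7 lie to the right among the blue ones.

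Some genes differed between the genotypes at both stages. The protease gene cpr-2 was at 13.1 and 17.8 FPKM in control post-dauers and 776 and 275 in aak(0) post-dauers (log2 difference 4.83, adjusted p = 0.0070), and its interaction was not called (adjusted p = 0.14). The acyltransferase gene oac-39, lower in aak(0) dauers, was also lower in aak(0) post-dauers (60.2 and 27.2 against 3.83 and 0.63 FPKM, adjusted p = 0.0215). Linker histone genes had a different pattern there. The gene hil-3 was at 20.8 and 18.7 FPKM in control post-dauers and 176 and 175 in aak(0) post-dauers (log2 difference 3.09, adjusted p = 0.00399), the reverse of its fall in dauers, with a called interaction (adjusted p = 0.00185). The gene his-24 was at 19.7 and 20.2 against 307 and 301 FPKM there (adjusted p = 0.00399) and hil-7 at 0.67 and 2.3 against 77.6 and 55.9 (adjusted p = 0.00582). The TGF-beta gene daf-7, lower in aak(0) dauers, was higher in aak(0) post-dauers (1.53 and 1.24 against 7.94 and 6.84 FPKM, adjusted p = 0.024). The oocyte list had no member called either way in post-dauers, and 30 of its 36 members had a called interaction.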

How the data were processed

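Per the labels' protocols, libraries of poly(A)-selected RNA from whole animals (KAPA mRNA HyperPrep) were sequenced as read pairs of at most 80 nt. The submitters' processing notes name Trimmomatic 0.35, STAR 2.7.1a, RSEM, DESeq2 1.30.1 and the build WBcel235, with no role or order. The authors deposited FPKM for 8 libraries, and 2 tables of signal (counts divided by a size factor of each library) from which whole reads were recovered: 100% of values were whole within 1e-06.

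Genes with a mean of at least 1 FPKM over the 4 dauer libraries were tested on log2(FPKM + 1) with limma 3.58.1 (trend, R 4.3.3), 1 mean per group over all 8 libraries (4 residual degrees of freedom), with Benjamini-Hochberg adjustment over all 14942 genes and a threshold of 0.05. Fold changes on this scale understate those of low genes. Errors are SE. Alternatives, 18 for the dauer comparison, included TMM scaling, edgeR 4.0.16 and DESeq2 1.42.0 on the recovered reads, other filters, a pseudocount of 0.1 and leaving out each library. The scripts were tested on simulated data.

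Named genes were fixed key genes of each list, the 12 largest rises and 12 largest falls with a mean of at least 5 FPKM and no overlap (at most 2 per name stem), and up to 4 called members of a list in each direction with the smallest adjusted p. The genes and the 69 lists were chosen with earlier results of these data known, and 8 list symbols matched no gene.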

Additional observations from a re-analysis of the deposited data

Results flagged for a closer look

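Of the 154 genes named, 90 were singled out because their genotype difference changed with the stage. For each, the interaction (the log2 difference of aak(0) minus control in dauers, less that in post-dauers, from limma on log2(FPKM + 1)) had an adjusted p of at most 0.0432. It was above 0 for 61 of them and below 0 for 29. Groups of 2 libraries are too small for a check on single outlying samples. All values below are interactions on that log2 scale, and the 2 controls differed as described above. Many of the genes were named for their dauer difference, which is a term of the interaction, so a value on the same side is favoured by that choice.

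Most of the germline genes stood above 0, and snpc-1.3, a piRNA transcription gene of the male germline, stood below it at -2.75. Among oocyte and germline regulators, the interaction put cbd-1 at 5.36, nos-2 at 3.78, puf-5 at 4.16, oma-1 at 2.51 and gld-1 at 2.53. Among sperm genes, the interaction put msp-51 at 3.56, msp-79 at 2.63, nspd-10 at 2.32 and ssp-34 at 3.02. Among P granule and Argonaute genes, the interaction put meg-1 at 3.22, pgl-1 at 1.41, wago-1 at 2.62 and hrde-1 at 2.43. Among replication genes, the interaction put cdc-25.3 at 4.08, rnr-2 at 2.96 and rnr-1 at 1.68. Of the uterine lumen genes, which are somatic, the interaction put ule-3 at 3.28 and ule-4 at 3.43.

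Genes of the cuticle, intestine, defence and muscle were mostly above 0 too. Among collagen and molting genes, the interaction put col-17 at 6.20, dpy-5 at 5.35, sqt-1 at 5.65, dpy-13 at 5.25, col-73 at 4.40, col-93 at 3.84 and nhr-23 at 1.25. The collagen below 0 was col-62 at -1.96. Among intestinal genes, the interaction put asp-1 at 4.50, asp-3 at 4.39, cpr-5 at 4.82 and act-5 at 1.3. Among lectin and immune genes, the interaction put spp-3 at 4.76, irg-5 at 3.51, clec-87 at 3.44, irg-4 at 3.35, clec-63 at 2.76 and spp-1 at 1.41. Of the antimicrobial genes, that below 0 was fipr-13 at -3.49. Among muscle and pharynx genes, the interaction put myo-3 at 2.67, mup-2 at 1.84, ceh-34 at -1.72 and tni-4 at -1.18. Among pud genes, the interaction put pud-2.1 at 8.23, pud-3 at 6.39 and pud-1.2 at 5.57. Among other genes, the interaction put sdz-24 at 5.79, lec-10 at 5.27, sls-2.1 at 5.18 and dct-16 at 4.77. The value of sls-2.1 is one of FPKM alone: on recovered reads edgeR gave a dauer log2 difference of -0.09 (adjusted p = 0.977).

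Neuropeptide, mitochondrial and histone genes were mostly below 0. Among neuropeptides, the interaction put ntc-1 at -3.09, flp-13 at -2.73, flp-1 at -2.65, nlp-6 at -2.14, flp-11 at -1.97, nlp-49 at -1.97, flp-26 at -1.62 and nlp-77 at 1.05. Among insulin and dauer pathway genes, the interaction put daf-7 at -3.36, ins-26 at -2.01, ins-1 at -1.88 and ins-37 at 1.69. Among neuron markers, the interaction put mec-7 at 2.59, tdc-1 at 2.11, mec-12 at 1.71, mec-4 at 1.43 and tba-9 at -2.16. Of the mitochondrial genes, the interaction put nduo-2 at -2.51, atp-6 at -2.48 and ctc-3 at -2.14. Among histone genes, the interaction put hil-3 at -4.08, his-24 at -3.95, hil-7 at -3.08, his-56 at -2.65, his-46 at -2.65, his-60 at -2.40 and his-68 at 3.08. In the dauers, his-56 and his-46 had few reads of their own, as described above.

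Metabolic and single genes were divided. Among fat metabolism genes, the interaction put fat-6 at 2.7, elo-5 at 2.53, elo-6 at 2.14, lipl-1 at 2.06, lipl-4 at 1.63, pod-2 at 1.62 and lips-15 at -1.85. Of the carbohydrate genes, the interaction put pygl-1 at 1.97 and idh-1 at 1.96. Among AMPK subunits, the interaction put aak-1 at 1.86 and aakb-1 at -1.19. Among the others, the interaction put hsp-4 at 1.82, glb-8 at -2.12 and dpf-6 at -1.92.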

How the results depend on the processing

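The number of genes higher in aak(0) dauers was 3863 of 14942 tested, and 2564 of only 10905 tested with a minimum mean of 5 FPKM. Over the 14942 genes it moved to 2500 after TMM scaling, 2145 with edgeR and 2153 with DESeq2 on recovered reads. The number lower was 602, against 1532, 1276 and 1593 under the last 3. The median log2 difference of all genes was 0.0357, 0.0001 and -0.0697 under those 3. Leaving out 1 of the 8 libraries at a time gave 1279 to 4766 higher and 142 to 752 lower. In post-dauers it gave 12 to 883 higher and 0 to 1006 lower by limma (221 at an unadjusted p under 0.05 where it was 0), and TMM scaling gave 97 lower. The interaction ranged from 265 to 3054 above 0 and from 63 to 621 below, with 864 below after TMM scaling.

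The deviations of same-numbered dauer libraries had a correlation of 0.0097, and of post-dauer libraries -0.278. Such correlations cannot exclude a batch shared by replicate number. Ribosomal RNA genes took 12.84% of reads in the control and 9.61% in the aak(0) dauer library of replicate 1. In replicate 2 these shares were 3.49 and 1.12%. Whether replicate numbers pair the libraries was not settled. With the replicate block the counts were 3135 and 452 in dauers, 145 and 14 in post-dauers and 713 and 255 for the interaction. The crossed pairing, chosen after seeing the data, gave 27 lower in post-dauers.

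Of the 119 named genes called, 107 were still called after TMM scaling, 102 with edgeR and 101 with DESeq2, 104 without the first control and 81 without the first and 81 without the second aak(0) dauer library. The called gene that changed sign was sls-2.1, at -0.089 with edgeR and -0.085 with DESeq2. The following genes, not called, changed sign (log2 values after TMM scaling, with edgeR and with DESeq2): aak-2 -0.262, -0.225 and -0.306, daf-2 -0.172, -0.0965 and -0.187, elt-2 -0.316, -0.351 and -0.433, icl-1 -0.156, -0.178 and -0.275, rde-4 -0.210, -0.206 and -0.293, hpl-2 -0.185, -0.22 and -0.307, hsp-6 -0.353, -0.353 and -0.435, djr-1.2 -0.263, -0.340 and -0.404. With DESeq2 alone, aakg-1 was at -0.0400. With 1 library left out at a time, the following uncalled genes crossed 0: aak-2 from -0.0518 to 0.313, akt-1 from -0.33 to 0.0346, glh-1 from -0.424 to 0.261, elt-2 from -0.0844 to 0.215, fasn-1 from -0.299 to 0.244, icl-1 from -0.0324 to 0.522, hil-1 from -0.475 to 0.0943, his-24 from -0.48 to 0.297, hsp-6 from -0.0808 to 0.175 and djr-1.2 from -0.436 to 0.705. The cause of these changes was not tested. With 2 libraries a group, a lone library left in a group is assumed to vary like the others.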
